A study of Danio rerio with 4 samples.

Results

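Origin licensing and firing genes are those whose products mark the places where DNA replication starts, load the replicative helicase there and switch it on. The 10 genes described here are orc1, orc2, orc6, cdc6, cdt1, cdc45, gins1, gins2, gins3 and gins4. They were chosen by name from the gene symbols of the authors' deposited table of heart RNA, where all 10 were found, each on 1 row, among 14962 genes. The samples were deposited as hearts of adult zebrafish of the Ekkwill strain. Per the labels, the fish received alfacalcidol, a synthetic vitamin D analog that the body converts to the active hormone, or vehicle, by daily injection for 3 days, and hearts were collected 24 hours after the last dose. The amount injected, the vehicle, the sex of the fish and any pooling of hearts are not stated in the labels. Gene counts came from 2 libraries labelled alfacalcidol and 2 labelled vehicle, and the comparison table stands beside them without values per library.

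In a cell that is preparing to divide, the origin recognition complex binds DNA and, with CDC6 and CDT1, loads rings of the MCM proteins onto it. This step is called licensing and is restricted to the time before DNA synthesis. When synthesis begins, cyclin-dependent kinases and the CDC7-DBF4 kinase bring CDC45 and the GINS complex to the MCM ring, which then becomes the working helicase, named CMG after its parts, and the origin fires. Most cells of an adult heart are not cycling, and in zebrafish new heart muscle is known to come from the division of existing cardiomyocytes.

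The table and the count libraries did not hold the same kind of RNA, so they are given apart. Summed over 10 cardiomyocyte markers, the mean level was 89501 CPM (reads of a gene scaled to the library total) in the authors' deposited table. The same 10 markers summed to 359 and 310 CPM in the libraries labelled alfacalcidol and to 309 and 346 CPM in those labelled vehicle. Markers of skeletal muscle, 8 genes, reached 36789 and 31563 CPM in the libraries labelled alfacalcidol and 33851 and 36894 CPM in those labelled vehicle, while 7 of them summed to 2937 CPM in the authors' deposited table. The labelled tissue therefore had its defining markers at high level in the table and at low level in the count libraries. The count libraries also paired across their labels. The skin keratin gene krt4 was at 12562 and 19746 CPM in alfacalcidol replicates 1 and 2 and at 20498 and 12629 CPM in vehicle replicates 1 and 2. Over 22428 genes, the deviations of same-numbered libraries from their group means had a correlation of -0.47, and genes are not independent replicates in that value. Totals were 31427486 to 39572163 counts per library.

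The authors' deposited table listed all 10 genes as higher, where positive values are read as higher with alfacalcidol. That the table compares alfacalcidol with vehicle hearts was read from the series design, and it does not name its numerator. The reading of direction rests on cyp24a1 alone, a known target of the vitamin D receptor. The authors' deposited table gives this gene a log2 fold change of 1.53 (edgeR adjusted p 8.19e-05) at a low mean level of 3.69 CPM. Every gene of the group, 10 of 10, passed an adjusted p of 0.05 from edgeR, and their median log2 fold change was 2.81, taken from the authors' deposited table. Over all genes of the authors' deposited table, 20.1% were called in either direction and 10.9% were called higher and 9.22% lower, with a median log2 fold change of 0.0086. Among the 7824 genes of the authors' deposited table whose mean level lay within the range of these 10, from 1.38 to 14.6 CPM, 13.7% were called higher. At least 8-fold increases were listed for 5 of the 10, against 1.28% of all genes of the authors' deposited table. In hearts measured in bulk, more cells that express a gene and more RNA per cell cannot be told apart.

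**Figure D1:**
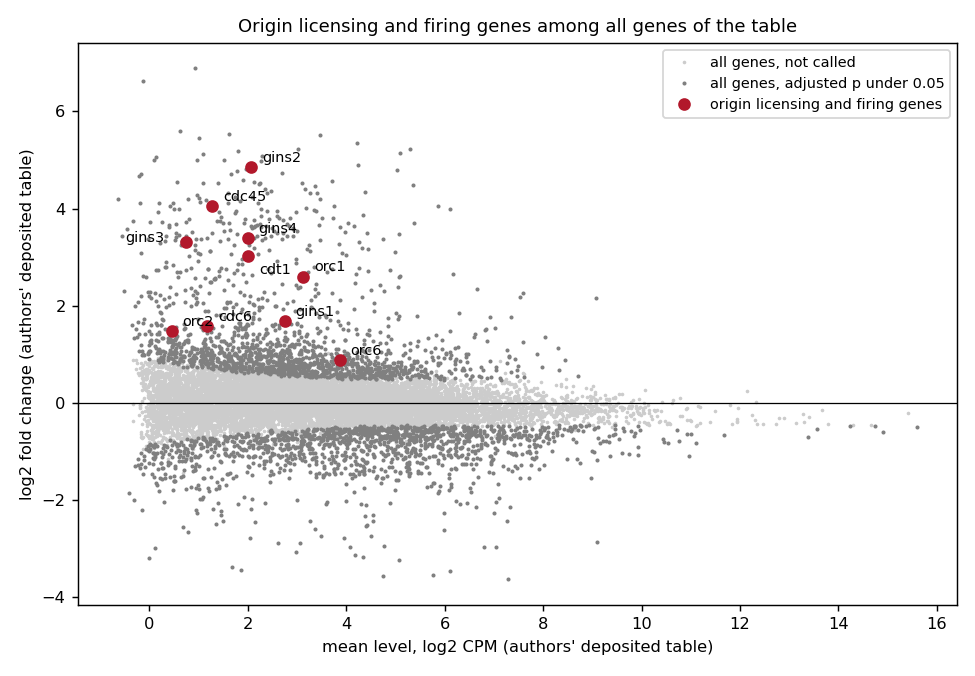
Each point is a gene of the authors' deposited table, placed by its mean level in log2 CPM (x axis) and its log2 fold change (y axis). Red points are the 10 origin licensing and firing genes, all above 0, from orc6 at 0.88 to gins2 at 4.85, and dark grey points are other genes with an adjusted p under 0.05.

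The subunits of the origin recognition complex, which binds the origin and starts helicase loading, were higher to unequal degrees. Listed at a log2 fold change of 2.60 (6.05-fold) in the authors' deposited table, orc1 had a mean level of 8.77 CPM and an edgeR adjusted p of 6.41e-22. It encodes the largest subunit, a member of the AAA+ family of ATPases. The orc2 gene, for another core subunit, was higher by 1.48 (2.78-fold; edgeR adjusted p 0.000137) at 1.38 CPM in the authors' deposited table. The smallest of the increases was that of orc6, for a small subunit, at 0.88 (1.84-fold; edgeR adjusted p 0.000164) and 14.6 CPM in the authors' deposited table.

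The orc6 gene (chromosome 7, 41532117 to 41546245, GRCz10 coordinates of the authors' deposited table) shares 35.4% of its span with mylk3, which encodes a cardiac myosin light chain kinase. For that neighbour the authors' deposited table gave 549 CPM and a log2 fold change of -1.17, opposite in sign to orc6. Whether the counting used strand is not stated, and the part of shared reads in the value of orc6 was not tested. By the authors' deposited table the remaining subunit genes orc3, orc4 and orc5 were higher by 2.70, 2.19 and 3.48. Thus 6 of 6 genes of the complex were called higher, with a median of 2.40, beside 10.9% of all genes of that table.

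Both genes for the loading factors were higher. The ATPase gene cdc6, whose product joins the origin recognition complex, had a log2 fold change of 1.58 (2.98-fold; edgeR adjusted p 0.000131) at 2.27 CPM in the authors' deposited table. For cdt1, whose product brings the MCM ring to the origin, the values were 3.02 (8.09-fold; edgeR adjusted p 5.94e-20) and 4.02 CPM in the authors' deposited table. The annotated span of cdt1 (chromosome 7, 55217108 to 55229201) lies wholly within those of aprt and galns. Neither was called in the authors' deposited table (log2 fold changes 0.49 and 0.019, mean levels 8.64 and 4.61 CPM). The part of shared reads in the value of cdt1 was not tested. Geminin, encoded by gmnn, binds CDT1 and blocks loading outside the licensing period, and its gene was higher by 1.18 (edgeR adjusted p 0.000238) in the authors' deposited table.

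The genes for the firing factors held the largest increases of the group. The gins2 gene was higher by 4.85 on the log2 scale (28.8-fold; edgeR adjusted p 2.45e-44) at 4.20 CPM in the authors' deposited table, the 20th largest log2 fold change of all 14962 genes. CDC45, which with the MCM ring and GINS makes up the CMG helicase, is encoded by cdc45. The authors' deposited table put that gene at 4.05 (16.6-fold, edgeR adjusted p 6.44e-23) and 2.42 CPM, in place 66 of that order. GINS is made of equal numbers of its subunits, yet their transcripts were listed with different sizes of change. In the authors' deposited table gins4 was higher by 3.39 (10.5-fold, edgeR adjusted p 3.24e-28) at 4.01 CPM. There gins3 was higher by 3.31 (9.91-fold, edgeR adjusted p 6.11e-17) at a low mean level of 1.69 CPM. The fourth, gins1, was higher by 1.68 (3.21-fold; edgeR adjusted p 1.33e-11) at 6.74 CPM in the authors' deposited table. The table gives no standard error, so the differences in size between subunits could not be tested. It gives no level per group either, so the sizes of large changes at these low mean levels are uncertain. The gins3 gene (chromosome 25, 13303567 to 13312360) shares 30.6% of its span with znrf1. That neighbour was not called in the authors' deposited table (12.2 CPM, log2 fold change 0.48). The part of shared reads in the value of gins3 was not tested.

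Under a Bonferroni adjustment over all genes of the authors' deposited table the calls of orc2, orc6 and cdc6 were lost. Their edgeR p-values after that adjustment were 0.140, 0.172 and 0.133. The share of all genes that pass this adjustment was not computed, so the calls that were kept have no background beside them. The 10 genes lie on 7 chromosomes. CPM values depend on transcript length, so levels are not compared between genes.

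Around these genes, 44 others of the same pathway were matched in the authors' deposited table. Of these, 31 were called higher, 0 lower and 13 not called, beside 10.9% of all genes called higher and 9.22% lower. All 6 genes for the MCM ring were called higher, and the authors' deposited table gave log2 fold changes from 3.36 for mcm5 to 5.36 for mcm3. With cdc45 and the GINS genes, 11 of 11 genes of the CMG helicase were thus higher, with a median of 4.05. Of 16 names listed for firing, 13 were found in the authors' deposited table, and cdc7 was not among those found. All 13 genes found were called higher. Among them the authors' deposited table listed recql4, for a helicase of the RECQ family that takes part in replication start, at 6.63 and mcm10, for a factor that activates the CMG helicase, at 3.74. Their mean levels there were 0.921 and 0.799 CPM, so the sizes of these changes are uncertain. Also called were wdhd1 at 4.53 and ccna2 at 4.02 and, among others of the list, dbf4, for the regulatory subunit of the CDC7 kinase, at 2.23, ticrr at 2.03, topbp1 at 1.32 and mtbp at 1.13, all by the authors' deposited table. The last 3 encode partners that link kinase activity to the recruitment of CDC45.

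Among 12 genes for the turnover of licensing factors the authors' deposited table called dtl and fbxo5 higher and 0 lower, a share of calls near that of all its genes (20.1%). The dtl gene was higher by 5.45 (edgeR adjusted p 4.07e-33) at 2.02 CPM in the authors' deposited table, a low mean level that leaves the size uncertain. Its product is the substrate receptor that marks CDT1 for destruction during DNA synthesis. For its partners in that ubiquitin ligase, cul4a, cul4b and ddb1, the authors' deposited table gave -0.16, -0.29 and 0.042, none of them called. It gave 0.35 (edgeR adjusted p 0.422) for skp2, the receptor of another ligase that acts on CDT1. Among the loading partners the authors' deposited table called lrwd1 (3.57) and mcmbp (1.68) higher. It did not call kat7a and kat7b, for histone acetyltransferases (0.094 and 0.41). Of 5 fork protection and MCM-like genes the authors' deposited table called 4 higher, beside 10.9% of all its genes. Among them were tipin at 0.65 (edgeR adjusted p 0.0221) and mcm8, for a helicase related to the MCM ring, at 4.54. The mean level of mcm8 there was 1.48 CPM, so the size of its change is uncertain. The partner of tipin, timeless, was not called in the authors' deposited table (0.34).

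**Figure D2:**
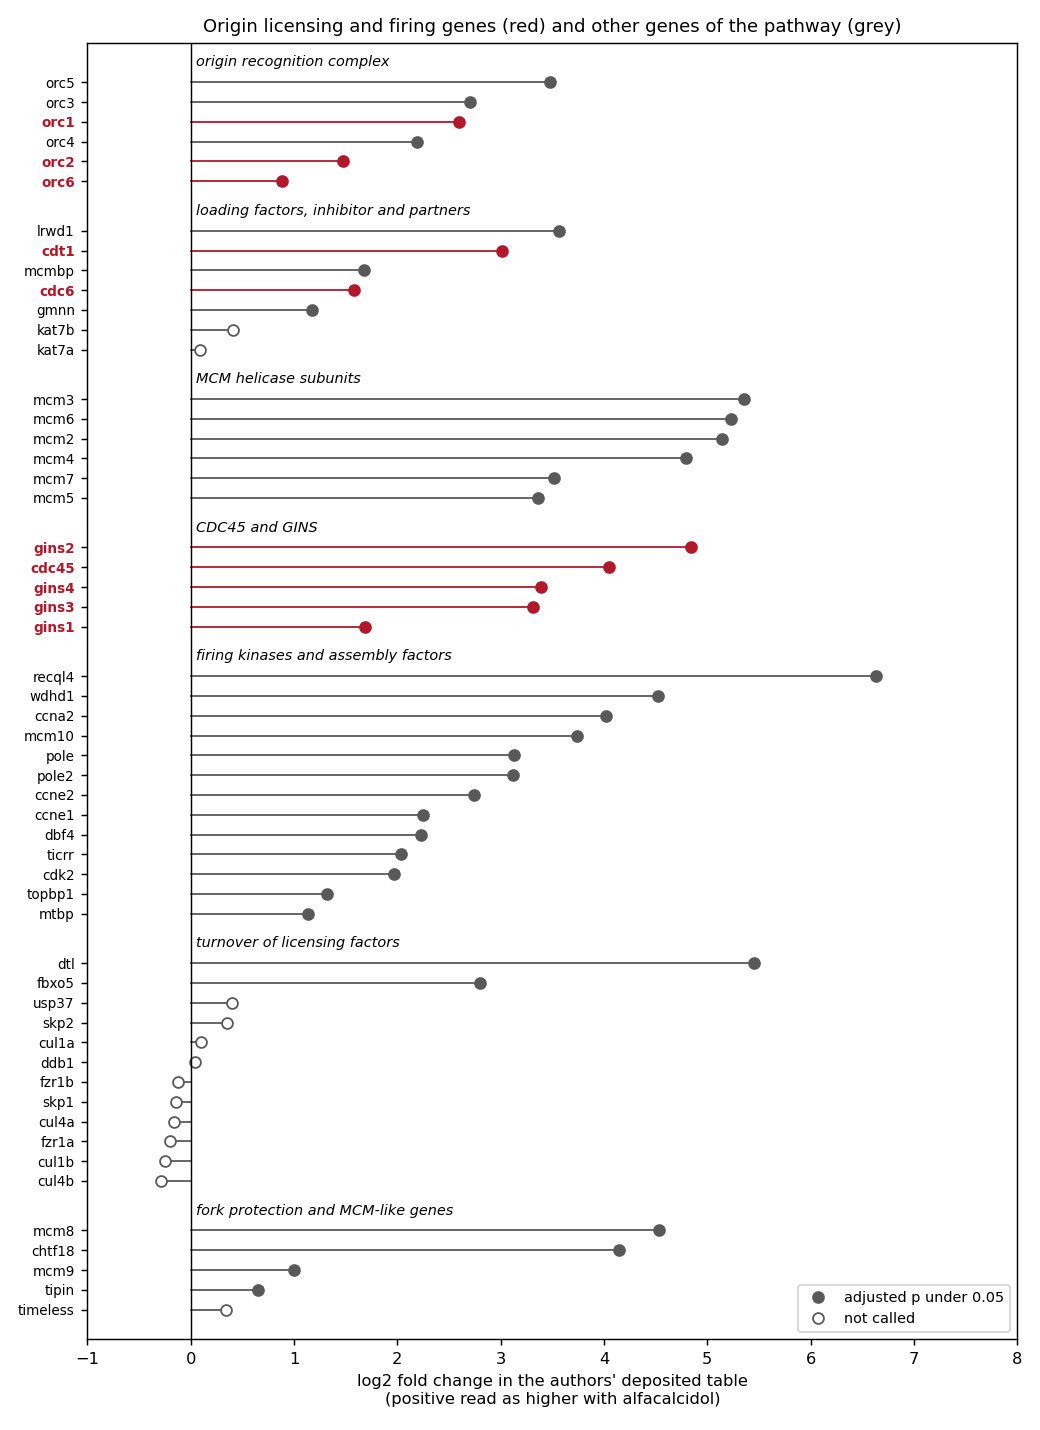
Log2 fold changes in the authors' deposited table (x axis) for the 10 origin licensing and firing genes (red) and 44 other genes of the pathway (grey), grouped by role. Filled points have an adjusted p under 0.05; open points, 13 in all, do not, and 10 of them are genes for the turnover of licensing factors.

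Other listed genes of dividing cells were also called higher. The authors' deposited table called all 8 listed proliferation genes higher, beside 10.9% of all its genes, with pcna at 2.65 and top2a at 4.06. It called 0 of the cell type markers of the heart higher. Called lower in the authors' deposited table were 3 of 10 cardiomyocyte, 3 of 8 endothelial and endocardial and 1 of 8 epicardial and fibroblast markers, beside 9.22% of all its genes. For blood cells the authors' deposited table called lower 4 of 8 leukocyte markers, which summed to a mean level of 154 CPM, and 2 of 9 erythrocyte markers, which summed to 528 CPM. With lists this short and 9.22% of all genes called lower, these counts are given as a description. No level per group is given there, and which cells carried the transcripts of the 10 genes was not tested.

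In the count libraries, joined by gene ID, none of the 10 genes was called between the labels. By edgeR's quasi-likelihood F-test, adjusted by Benjamini-Hochberg, 0 of the 10 passed, with adjusted p values of 1, as did 0% of 22428 genes. At an unadjusted p under 0.05 it had 0 of the 10 and 0.571% of all genes, and the smallest unadjusted p of the 10 by edgeR was 0.219, for orc6. Fold changes below are of alfacalcidol over vehicle labels on the log2 scale, with 95% intervals. Nothing in the labels says that the libraries came from separate animals, so these p-values measure the spread between libraries, which may be technical. The share of all genes under an unadjusted p of 0.05 was far below that threshold itself. These p-values may therefore run large and the intervals wide, and the cause was not tested. All 10 passed the filter on low counts, with 90 to 582 reads per library.

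For the origin recognition genes the labels overlapped. In the libraries labelled alfacalcidol orc1 had 10.9 and 11.5 CPM, against 12.2 and 11.4 CPM in those labelled vehicle (log2 fold change -0.076, interval -0.33 to 0.18). The values of orc2 were 3.34 and 4.36 CPM under the alfacalcidol label and 4.17 and 3.195 CPM under the vehicle label (0.070, interval -0.45 to 0.59). With 5.23 and 7.06 CPM under alfacalcidol and 5.51 and 4.75 CPM under vehicle, orc6 had the largest difference, 0.26 (interval -0.20 to 0.73). Its highest value was that of alfacalcidol replicate 2 alone, and the other alfacalcidol library lay between those labelled vehicle.

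Neither of the loading factor genes was called. Values of cdc6 were 11.8 and 14.7 CPM under alfacalcidol and 13.97 and 14.2 CPM under vehicle (-0.091, interval -0.397 to 0.21), and the labels overlapped. For cdt1 they were 6.26 and 6.83 CPM under alfacalcidol and 7.26 and 7.05 CPM under vehicle (-0.13, interval -0.45 to 0.199), without overlap.

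Among the firing factor genes, cdc45 had 6.94 and 7.16 CPM under alfacalcidol and 8.62 and 6.56 CPM under vehicle (-0.10, interval -0.505 to 0.29). The gins1 gene had 5.82 and 6.33 CPM under alfacalcidol and 5.09 and 6.51 CPM under vehicle (0.066, interval -0.35 to 0.48). For gins2, first of the group in the table, the values were 4.34 and 4.71 CPM under alfacalcidol and 4.36 and 4.26 CPM under vehicle (0.072, interval -0.301 to 0.45). In these 3 genes the labels overlapped. The 2 remaining subunits did not overlap, in opposite directions. Levels of gins3 were 2.66 and 3.07 CPM under alfacalcidol and 3.09 and 3.22 CPM under vehicle (-0.14, interval -0.57 to 0.299). Those of gins4 were 6.796 and 6.60 CPM under alfacalcidol and 6.43 and 5.96 CPM under vehicle (0.11, interval -0.22 to 0.44). Non-overlap was thus seen in 3 of the 10 genes, and in 21.0% of all 22428 genes of the count libraries, so that the share among the 10 is no result about them.

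**Figure D3:**
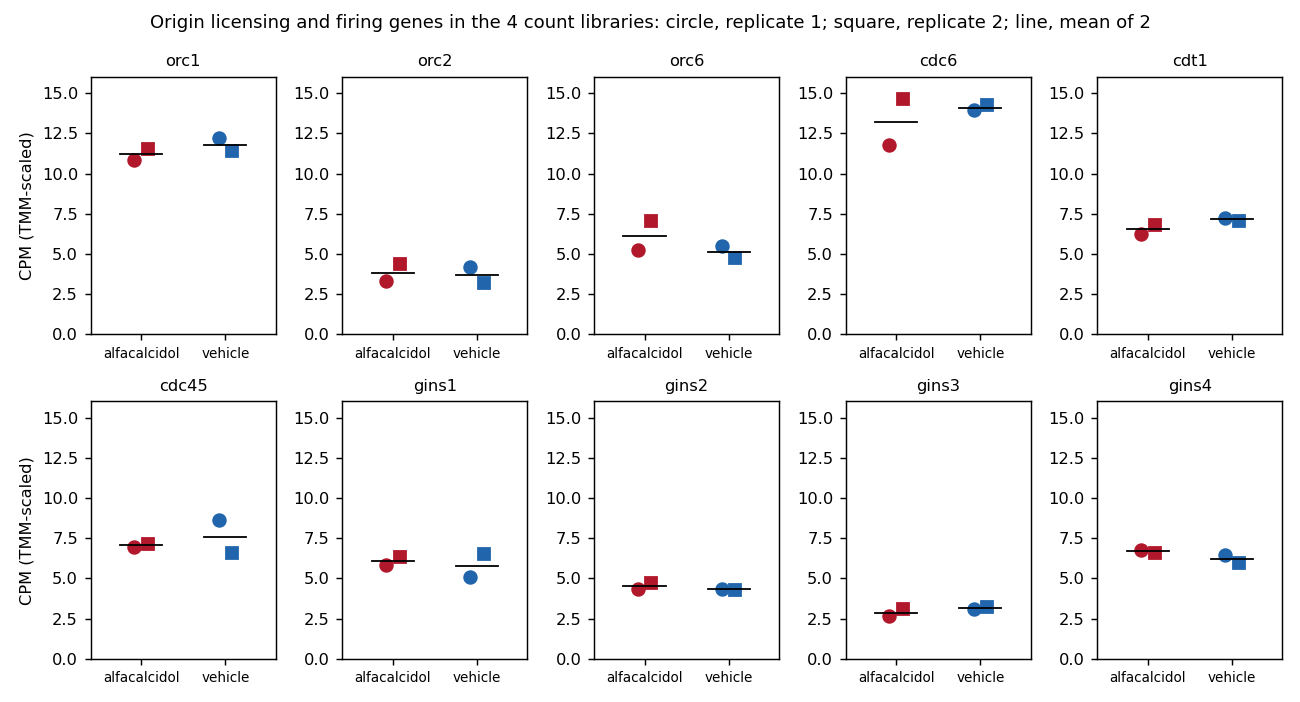
TMM-scaled CPM (y axis) of the 10 origin licensing and firing genes in the 2 libraries labelled alfacalcidol (red) and the 2 labelled vehicle (blue), with the mean of each label as a line. All values lie between 2.66 and 14.7 CPM, and the labels overlap in 7 of the 10 genes.

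Fold changes of the 10 genes in the count libraries ran from -0.14 to 0.26, with 5 above and 5 below 0. The libraries and the authors' deposited table did not hold the same kind of RNA, so these intervals do not test the values of that table. As a description only, for all 10 the value in the authors' deposited table lay above the upper end of the interval from the counts. The nearest was orc6, with an upper end of 0.73 against 0.88 in the authors' deposited table, and the farthest was gins2, with 0.45 against 4.85. For orc6 this did not hold without vehicle replicate 1 or without alfacalcidol replicate 1, where the upper end was 0.91 and 0.93, and its fold change ran from 0.029 to 0.46 as each library was left out. For the other 9 genes it held with each library left out. In the count libraries 45 other pathway genes had log2 fold changes between -0.24 and 0.19, and 0 of them had an unadjusted p under 0.05 by edgeR. Summed over the 10 genes, the level was 63.8 and 72.5 CPM under the alfacalcidol label and 70.7 and 67.1 CPM under the vehicle label. These sums were scaled to the library total alone, while the count library values given above for each of the 10 genes were TMM-scaled. The sum of their mean levels in the authors' deposited table was 50.1 CPM. That value came from another kind of RNA on a separately normalized scale, so the sums are not compared.

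**Figure D4:**
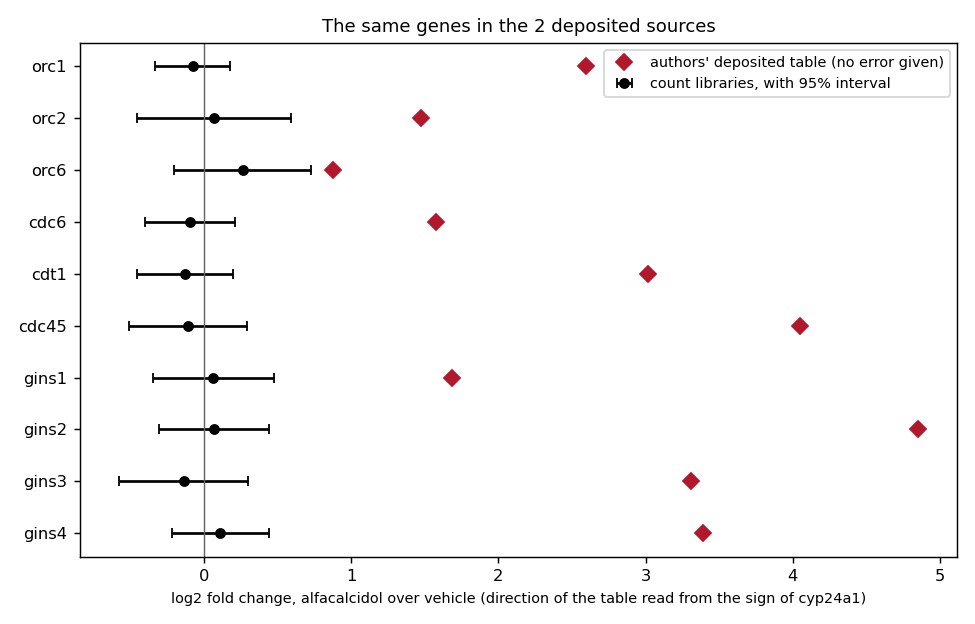
Log2 fold change (x axis) of each of the 10 genes in the count libraries (black, with 95% intervals from the quasi-likelihood standard error) and in the authors' deposited table (red, which gives no error). With all 4 libraries, the 10 black intervals include 0 and end below the red value of the same gene. The libraries and the authors' deposited table did not hold the same kind of RNA, so the intervals do not test the red values.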

How the data were processed

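RNA deposited as that of zebrafish hearts was measured by sequencing. Per the submitters' processing notes, the authors used CASAVA, TopHat2 and featureCounts with the GRCz10 build, and the count files they deposited hold raw counts of 31462 Ensembl genes per library. The deposited comparison table holds log2 fold changes, log2 CPM levels and p-values of 14962 genes, from edgeR per the same notes. Which libraries, filter and numerator stand behind it is not stated. Its adjusted column was checked to be a Benjamini-Hochberg adjustment.

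Genes were matched by symbol, ignoring case, and then by gene ID; the symbol and1 names a fin gene in zebrafish and was left out of its list. The count fit used edgeR 4.0.16 under R 4.3.3 (filterByExpr, TMM, two-sided quasi-likelihood F-test, group as the only term). It was also run on simulated data, and since the outcome is not given here, no conclusion is drawn from that run. Unlike the deposited libraries, the simulated ones did not pair across labels, so that run does not cover this feature. P-values were adjusted over all genes, with a threshold of 0.05. Alternatives used limma 3.58.1 (voom) and DESeq2 1.42.0. All 10 genes, cyp24a1 and the genes of the pathway and marker lists could be named; overlapping neighbours were named after their values were seen. The genes, lists and tests were chosen with earlier results of these data known. No sequences were used.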

Additional observations from a re-analysis of the deposited data

How the results depend on the processing

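In the authors' deposited table the count of 10 genes called higher became 7 under a Bonferroni adjustment, 9 with a 2-fold minimum and 9 with that minimum after centring on the median of all genes. It was 10 at an adjusted p of 0.01, among genes at 1 CPM or more and for direction after centring. For these alternatives the share of all genes of the authors' deposited table that pass was not computed. These counts therefore have no background beside them. No library could be left out of that table, which has no values per library. In the count libraries 0 of the 10 genes were called with RLE scaling, without a filter, by DESeq2 and by limma-voom. The same held with the replicate block and with the crossed replicate block. Of all genes, 0 were called under each of these alternatives except the crossed replicate block, so 0 of the 10 is no result about them. Fits with a library left out are read for fold changes only. The replicate numbers were not used as pairs, since same-numbered libraries had a correlation of -0.47. With the crossed pairing edgeR called 7 of 22428 genes, and with the replicate block it called 0. At an unadjusted p under 0.05 by edgeR, the crossed pairing had 788 genes and the main fit 128, with 0 of the 10 in both. The unadjusted edgeR p of orc6 was 0.0719 with the crossed pairing and 0.219 in the main fit. The p-values therefore depend on the pairing used. The labels do not give the crossed pairing, which follows the negative correlation in these same counts. Its calls and p-values are therefore no separate support. Signs of 4 small fold changes depended on the library left out, and the cause was not tested. They ran from -0.29 to 0.10 for cdc45, from -0.099 to 0.26 for gins1, from -0.14 to 0.27 for orc2 and from -0.26 to 0.056 for cdc6. The other 6 genes kept their sign under every alternative run, though with shifts in size: leaving out libraries gave 0.029 to 0.46 for orc6, 0.011 to 0.13 for gins2, -0.25 to -0.038 for gins3, -0.12 to -0.026 for orc1, -0.19 to -0.067 for cdt1 and 0.062 to 0.17 for gins4.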
